A study of Mus musculus with 2 samples.

Results

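The high mobility group (HMG) genes other than Hmgb1 were examined for recovery of their mRNA with HuR (Elavl1), a protein that binds mRNAs at AU-rich or U-rich stretches, in proliferating C2C12 cells, a mouse myoblast line. The genes were Hmgb2, Hmgb3, Hmga1, Hmga2, Hmgn1, Hmgn2, Hmgn3 and Hmgn5, and a clone was a member when its gene number in the deposited table belongs today to a gene of that list. Of 16896 spotted cDNA clones, 8 met this rule, for 6 genes. A further clone, named Hmgb2 in the table with a transcript that RefSeq (GRCm38.p6) gives to Hmgb2, carries a number that now belongs to the pseudogene Gm4739. It is described as the Hmgb2 clone, which makes 9 clones of 7 genes. Hmgn3 had no clone under this rule.

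There were 2 samples. The HuR sample was RNA that coprecipitated with a monoclonal anti-HuR antibody from C2C12 extract, and the IgG sample was RNA from such an extract with control IgG. Both came from untreated, undifferentiated cells at 80% confluency in medium with 20% serum and 1% antibiotics, and each had 3 array runs, of which 1 is unnumbered and the others carry the numbers 3 and 4. Whether runs came from separate immunoprecipitations is not stated, so an SD over run pairs is the spread between runs of 1 sample per antibody, and no test between the antibodies could be made. No input RNA was analysed here, so a high score with HuR does not separate an abundant transcript from one bound in large part, and fewer cells and less RNA per cell cannot be told apart in such extracts.

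The values are z scores, in units of the SD of all spots of a run within each of 2 array sections. After centring, 0 was the median of the run within the section. A positive difference (HuR minus IgG) means that a clone stood higher among the spots with HuR than with IgG. It is not a fold change. The 8452 features with the higher mean scores, called the brighter 50%, were compared, and a difference of 1 z score unit served as the threshold. Whole-array checks were as follows. Runs of the HuR sample correlated across features at 0.80 to 0.87 and runs of the IgG sample at 0.77 to 0.88, while the differences of run pairs correlated at only 0.03 to 0.31. Of 12 myoblast markers, the array held Vim, Fgfr1 and Acta2, all 3 in the brighter 50%, with mean scores of 0.10 to 2.45, whereas Myod1, Myf5, Pax7 and Des had no named clone. All 6 epithelial and liver markers had clones, 11 in all, with 6 in the brighter 50%, and their mean scores ran from -1.02 to 1.85. Scores of liver and muscle genes thus overlapped on this array, and the cause was not tested.

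HMG proteins are small, abundant non-histone proteins of chromatin. HMGB proteins bend DNA with paired HMG boxes, HMGA proteins hold the minor groove of AT-rich DNA with AT hooks, and HMGN proteins bind the nucleosome core and compete with linker histone. HuR binds U-rich elements, most often in 3′ untranslated regions, and is known for stabilising such mRNAs or altering their translation, and Hmgb1 is the HMG mRNA that this study was about. Paralogues within a family resemble each other in sequence, and a spotted cDNA may hybridise to more than the named gene.

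None of the 9 clones reached the threshold of 1 in either direction. Hmgb3 came nearest, at 0.81 ± 0.47 (SD over 3 run pairs), followed by Hmgn2 at 0.48 ± 0.36 and the Hmgb2 clone at 0.41 ± 0.35. Hmga2 lay near 0 with a gene difference of 0.11 ± 0.37 over 3 clones, and Hmgn5 lay lowest at -0.25 ± 0.50. Among all features in the brighter 50%, 1.56% were at or above 1 and 0.0947% at or below -1, so 0 of 7 member clones there is close to what the array as a whole gave. At 0.6, a looser threshold, 1 of the 7 was called, the Hmgb3 clone, against 3.68% of all features.

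Hmgb3 encodes an X-linked HMG-box protein best known in mouse from early blood progenitors. Its clone (Entrez Gene 15354, plate 30, row H, column 10, assigned to chromosome X in the table) scored 1.59 in the unnumbered HuR run, 1.04 in run 3 and 0.92 in run 4. With IgG it scored 0.24, 0.55 and 0.34. Every HuR run lay above every IgG run, and the smallest gap was between 0.92 and 0.55. The clone stood above 67.0% of all features with IgG and above 87.1% with HuR. The unnumbered pair gave a difference of 1.35, pair 3 gave 0.49 and pair 4 gave 0.58, so the unnumbered pair alone exceeded 1. Without the unnumbered pair the mean difference was 0.54. In the brighter 50%, 192 features had a difference as large or larger, the Hmgb3 clone itself included.

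The wells around the Hmgb3 clone on its source plate were not raised. The 5 adjoining wells had a median difference of -0.17. With the adjoining wells subtracted run by run the Hmgb3 difference was 1.00 ± 0.75, just past the threshold. With their median taken from the mean difference instead it was 0.98, short of the threshold. In the authors' deposited table the Hmgb3 clone had a z ratio of 2.70, the highest among the members, and a two-tailed p listed as 0.00, taken as unadjusted. The p of the other members there was 0.05 to 0.89. The same authors' deposited table gave 4 of the 5 Hmgb1 clones z ratios of 4.58 to 6.02, and the clone on plate 27 a z ratio of 1.18.

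Hmgb2, a paralogue of Hmgb1 and Hmgb3 that is abundant in dividing cells, was represented by the clone on plate 113 (row B, column 6, chromosome 8 in the table). It scored 1.40, 0.94 and 0.86 in the unnumbered run, run 3 and run 4 with HuR. With IgG the scores were 0.83, 0.28 and 0.85. The HuR runs thus lay above the IgG runs by the smallest margin, 0.86 against 0.85. That margin arose with the centring and was absent from the deposited scores. The unnumbered pair differed by 0.57, pair 3 by 0.66 and pair 4 by 0.01, so pair 4 showed next to no difference. The authors' deposited table gave a z ratio of 1.36 and a two-tailed p of 0.08, taken as unadjusted.

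**Figure D1:**
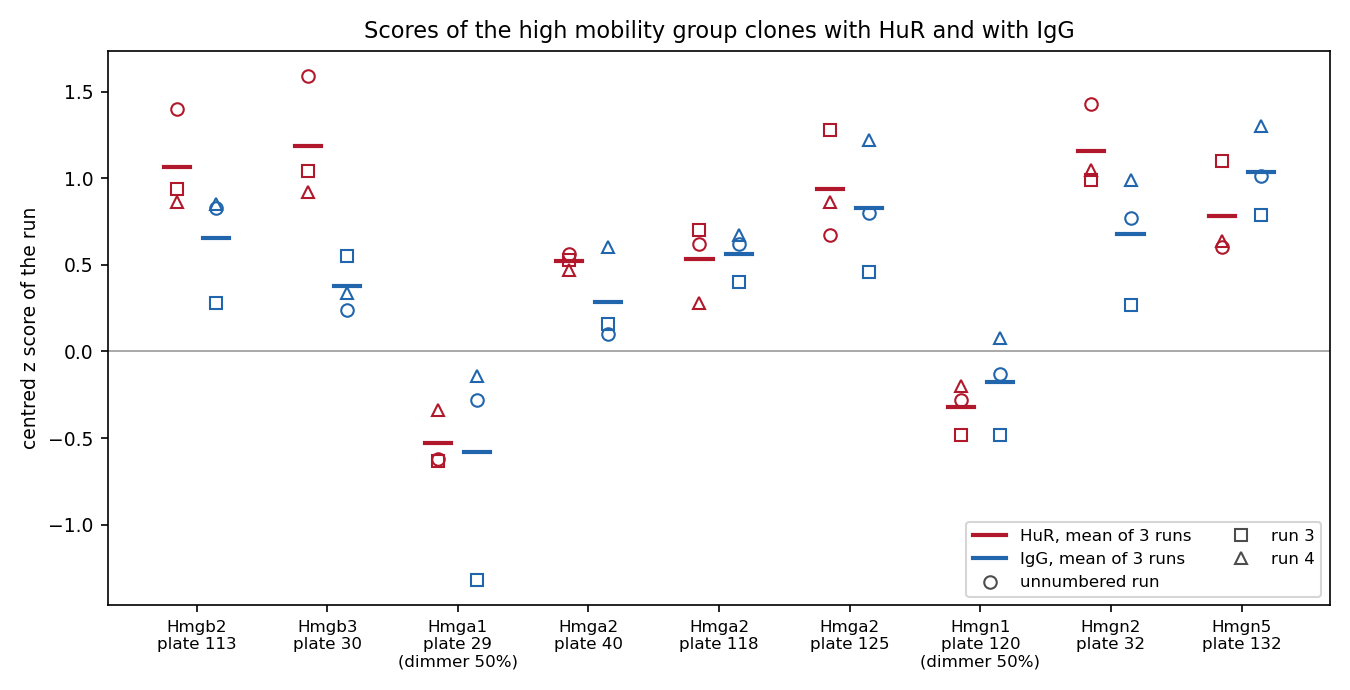
Centred z scores (vertical axis) of the 9 member clones in the 3 HuR runs (red) and the 3 IgG runs (blue), with bars at the mean of the runs and a symbol for each run. The Hmgb3 clone shows the widest gap, from 0.55 in its highest IgG run to 0.92 in its lowest HuR run. The Hmga1 and Hmgn1 clones have means below 0 with both antibodies.

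Among the nucleosome-binding HMGN proteins, the 3 genes with a clone went different ways. Hmgn2, a ubiquitous member that loosens chromatin fibres (Entrez Gene 15331, plate 32, row B, column 8, chromosome 4 in the table), scored 1.43, 0.99 and 1.05 with HuR in the unnumbered run, run 3 and run 4. With IgG it scored 0.77, 0.27 and 0.99. The lowest HuR run and the highest IgG run were equal at 0.99, so the antibodies touched without overlapping after centring. The medians taken off were -0.12 for HuR run 3 and -0.10 for IgG run 4, and on the deposited scores the antibodies overlapped. The differences were 0.66, 0.72 and 0.06, and the clone moved from above 76.6% of all features with IgG to above 86.7% with HuR. The authors' deposited table gave it a z ratio of 1.60 and a two-tailed p of 0.05.

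Hmgn5, also called Nsbp1, is an X-linked HMGN protein with a long acidic tail (Entrez Gene 50887, plate 132, row F, column 5). Its scores with HuR were 0.60, 1.10 and 0.64, and with IgG 1.01, 0.79 and 1.30. The antibodies overlapped, and the direction turned with the run pair: the unnumbered pair was at -0.41, pair 3 at 0.31 and pair 4 at -0.66. Its adjoining wells had a median difference of -0.24, nearly its own value. With them subtracted run by run the Hmgn5 difference was 0.04, and with their median taken from the mean difference it was -0.02. With IgG, Hmgn5 had the highest mean score of the members, 1.03, above 84.4% of all features.

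Hmgn1, the close relative of Hmgn2 (Entrez Gene 15312, plate 120, row G, column 4, chromosome 16 in the table), was dim with both antibodies. It scored -0.28, -0.48 and -0.20 with HuR and -0.13, -0.48 and 0.08 with IgG. The difference was -0.14 ± 0.14, with no pair above 0. This clone lay in the dimmer 50%, where signal over background is unknown, and it stayed out of the counts.

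The AT-hook genes lay near 0. Hmga2, known from embryonic and proliferating mesenchymal cells and as a target of let-7 microRNAs (Entrez Gene 15364, chromosome 10 in the table), had 3 clones, on plates 40, 118 and 125. The clone on plate 40 scored 0.56, 0.53 and 0.47 with HuR against 0.10, 0.16 and 0.60 with IgG, a difference of 0.23 ± 0.32. The clone on plate 118 scored 0.62, 0.70 and 0.28 with HuR against 0.62, 0.40 and 0.67 with IgG, a difference of -0.03 ± 0.35. The clone on plate 125 scored 0.67, 1.28 and 0.86 with HuR against 0.80, 0.46 and 1.22 with IgG, a difference of 0.11 ± 0.63. HuR and IgG runs overlapped on each of the 3 Hmga2 clones, and the clones differed among themselves by less than their own spread between run pairs. Their differences in pair 3 were 0.37, 0.30 and 0.82, all above 0, and in pair 4 they were -0.13, -0.39 and -0.36, all below 0.

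Hmga1, the other AT-hook gene (Entrez Gene 15361, plate 29, row B, column 11, chromosome 17 in the table), was the dimmest member. It scored -0.62, -0.63 and -0.34 with HuR and -0.28, -1.32 and -0.14 with IgG. Its difference of 0.05 ± 0.56 rested on the low IgG score of run 3, and it was below 0 in the other 2 pairs. The clone lay above only 24.2% of all features with HuR and 21.9% with IgG.

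The members moved with the run pair. In pair 3 all 7 member clones of the brighter 50% were above 0, with a median of 0.49, whereas 52.0% of all features there were above 0, with a median of 0.02. In the unnumbered pair 4 of 7 were above 0, with a median of 0.46, against 42.7% and -0.11 for all features. In pair 4 only 3 of 7 were above 0, with a median of -0.13, against 46.8% and -0.02. Over the mean of the pairs 5 of 7 were above 0, with a median of 0.23, against 44.3% and -0.03 for all features. The 7 clones stand for 5 genes. Their median thus ran from -0.13 to 0.49 over the pairs, and that of all features from -0.11 to 0.02.

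Hmgb3, Hmgn2 and the Hmgb2 clone were above 0 in each of the 3 pairs, which is 3 of 7 clones against 10.2% of all features. No member clone of the brighter 50% was below 0 in each pair, against 10.4%. Every HuR run exceeded every IgG run on 2 of the 7 clones, Hmgb3 and the Hmgb2 clone, against 4.56% of all features. The Hmgb2 clone entered the counts of 3 and of 2 clones only after centring. In its array section the median taken off was -0.05 for HuR run 4 and -0.03 for IgG run 4. On the deposited scores its pair 4 was not above 0, and the clone left both counts. Without the Hmgb2 clone, whose gene number is a pseudogene's, 4 of 6 clones were above 0 in the mean, 2 of 6 in each pair, and Hmgb3 alone had every HuR run above every IgG run.

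**Figure D2:**
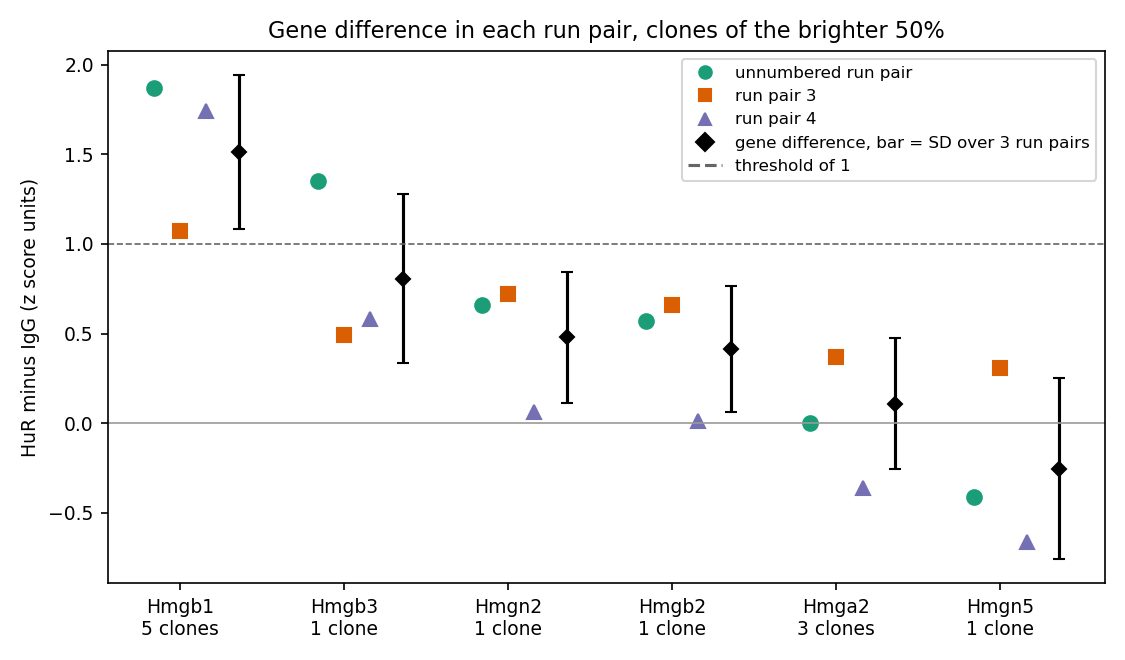
Difference between HuR and IgG (vertical axis, z score units) of 5 member genes and of Hmgb1 in each run pair (coloured symbols), with the gene difference and its SD over 3 run pairs (black). Hmgn2, the Hmgb2 clone, Hmga2 and Hmgn5 keep the same order in every pair while all 4 are lowest in pair 4.

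The genes kept much the same order from pair to pair although their level swung. Hmgn2 exceeded the Hmgb2 clone in all 3 pairs, by 0.09, 0.06 and 0.05, a mean gap of 0.07 ± 0.02 between clones of different plates and array sections. Each section was centred separately, with shifts of 0.03 to 0.16 per run, so the steadiness of this gap depends on the centring. Averaged over the pairs, the centring hardly changed its size: Hmgn2 and the Hmgb2 clone were at 0.48 and 0.41 on the deposited scores. With quantile normalization they were at 0.47 and 0.43. The Hmgb2 clone exceeded Hmga2 by 0.57, 0.29 and 0.37, and Hmga2 exceeded Hmgn5 by 0.41, 0.06 and 0.30. For these 3 neighbouring steps the mean over pairs was larger than its SD. Hmgb3 broke the order in pair 3, where it was 0.23 below Hmgn2, and its lead over Hmgn2 of 0.33 ± 0.49 was within the spread. This order was noticed in the data and describes runs of 1 sample per antibody.

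In the median of its clones, Hmgb1 stood apart from the other genes in each pair. Its 5 clones gave a gene difference of 1.51 ± 0.43, with 1.87 for the unnumbered runs, 1.07 for run pair 3 and 1.74 for run pair 4. The lead of Hmgb1 over Hmgb3 was 0.52, 0.58 and 1.16, with a mean of 0.75 ± 0.35. Its lead over Hmgn2 was 1.08 ± 0.67, over the Hmgb2 clone 1.15 ± 0.67, over Hmga2 1.56 ± 0.75 and over Hmgn5 1.81 ± 0.91, each in 3 of 3 pairs. With IgG alone, Hmgb1 overlapped some members and lay above others. Its clones scored 0.58 to 1.29 on average, a range that holds the Hmgb2 clone (0.65), Hmgn2 (0.68), Hmgn5 (1.03) and the Hmga2 clone on plate 125 (0.83). Below that range lay Hmgb3 (0.38), the Hmga2 clones on plates 40 (0.29) and 118 (0.56), Hmgn1 (-0.18) and Hmga1 (-0.58). The lowest Hmgb1 clone, on plate 27, was at 0.35 ± 0.82, below Hmgb3, Hmgn2 and the Hmgb2 clone.

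**Figure D3:**
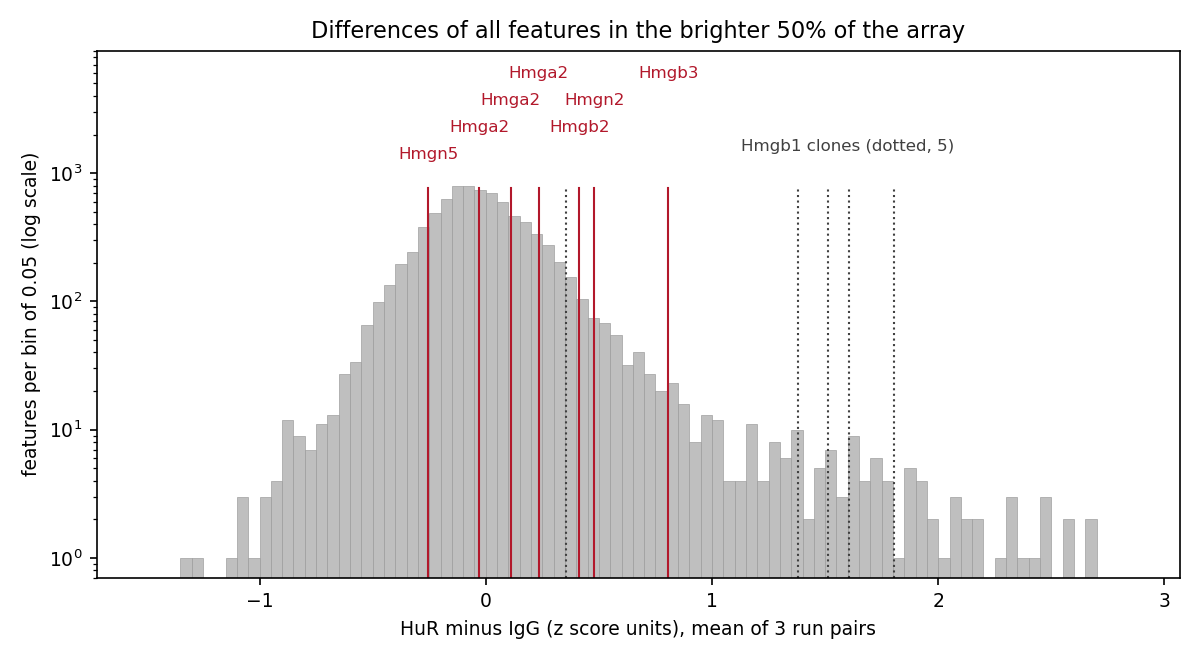
Number of features (log scale) by difference between HuR and IgG in z score units, over the 8452 features in the brighter 50%, with the 7 member clones (red lines) and the 5 Hmgb1 clones (dotted). The members run from -0.25 to 0.81, and the other 4 Hmgb1 clones lie at 1.38 and above while the lowest is at 0.35.

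The patterns most like those of Hmgb3 and Hmgn5 were sought by Euclidean distance over the 6 centred run scores, among named clones of other genes in the brighter 50%. For Hmgb3 the nearest were AU019559 (distance 0.33, difference 0.75 ± 0.64), Actr2 (0.53, difference 0.65 ± 0.35), C78926 (0.56, difference 0.63 ± 0.49), Acly (0.59, difference 0.58 ± 0.15) and Sdccag1 (0.59, difference 0.66 ± 0.21). For Hmgn5 they were Fen1 (0.19, difference -0.12 ± 0.52), Afg3l2 (0.19, difference -0.34 ± 0.43), Tbc1d17 (0.23, difference -0.24 ± 0.51), Cyb5r3 (0.24, difference -0.15 ± 0.46) and Rpl26 (0.24, difference -0.13 ± 0.48). The nearest clones lay closer to Hmgn5 than any named clone lay to Hmgb3. Likeness was measured over the runs of 2 samples.

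Related chromatin genes were described beside the members from lists of other HMG-box proteins, linker histones, the SET complex, regulators of Hmga2, and nucleosome and chromatin partners. Of 84 such genes, 41 had a clone and 22 a clone in the brighter 50%. Of the 22, 7 were above 0 and 1 was at or above 1, with a median of -0.06. Over all 4416 named genes in the brighter 50%, 42.3% were above 0 and 1.43% at or above 1, with a median of -0.04. The 5 member genes had a median of 0.41, with 4 above 0. Without the Hmgb2 clone the median of the other 4 genes was 0.30.

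Among other HMG-box proteins, 1 of 6 genes in the brighter 50% was above 0, with a median of -0.11. Over all signal levels 6 of 14 were above 0. Sox11, a transcription factor of neural and mesenchymal progenitors, was at 0.28 ± 0.16. Tcf7l1, a Wnt pathway repressor, was at -0.03 ± 0.18, Smarce1, a SWI/SNF remodeller subunit, at -0.35 ± 0.24, and Hbp1, a cell cycle repressor, at -0.45 ± 0.79. The wells adjoining that Hbp1 clone had a median of -0.32. Sox4, another progenitor factor, was dim and is named here after its values were seen. Its clone on plate 89 rose from -1.38 with IgG to -0.23 with HuR, a difference of 1.16 ± 0.08 that was above 0 in all 3 pairs. Over all features of any signal, 1.13% were at or above 1.

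In the SET complex, which holds the HMGB2 protein together with the histone chaperone SET in human cells, Set itself was at 1.12 in the median of its 3 clones in the brighter 50%, and a dimmer Set clone was at 1.39 ± 0.23. The chaperone Anp32b was at -0.17 ± 0.28 and -0.14 ± 0.24 on its 2 clones and the nucleoside diphosphate kinase gene Nme1 at -0.30 ± 0.77. Thus 1 of the 3 measured genes was above 0. Of the linker histones, H1f0 was at 0.02 ± 0.20 on its brighter clone. Of the regulators of Hmga2, the cold-shock proteins Ybx3 (-0.01 ± 0.12) and Ybx1 (-0.09 ± 0.29) were measured in the brighter 50%, and Lin28a, Lin28b and Igf2bp2 had no named clone.

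Among 10 nucleosome and chromatin partners in the brighter 50%, 4 were above 0 and the median was -0.05. Cbx1, a heterochromatin protein, was the highest at 0.48 ± 0.43, and the acetyltransferase gene Kat2b was at 0.14 ± 0.10. The lowest were Npm1, nucleophosmin, with clones at -0.27 ± 0.32 and -0.12 ± 0.33, and Smarca5, a remodelling ATPase, at -0.12 ± 0.11. No gene of this list reached 1 in either direction.

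**Figure D4:**
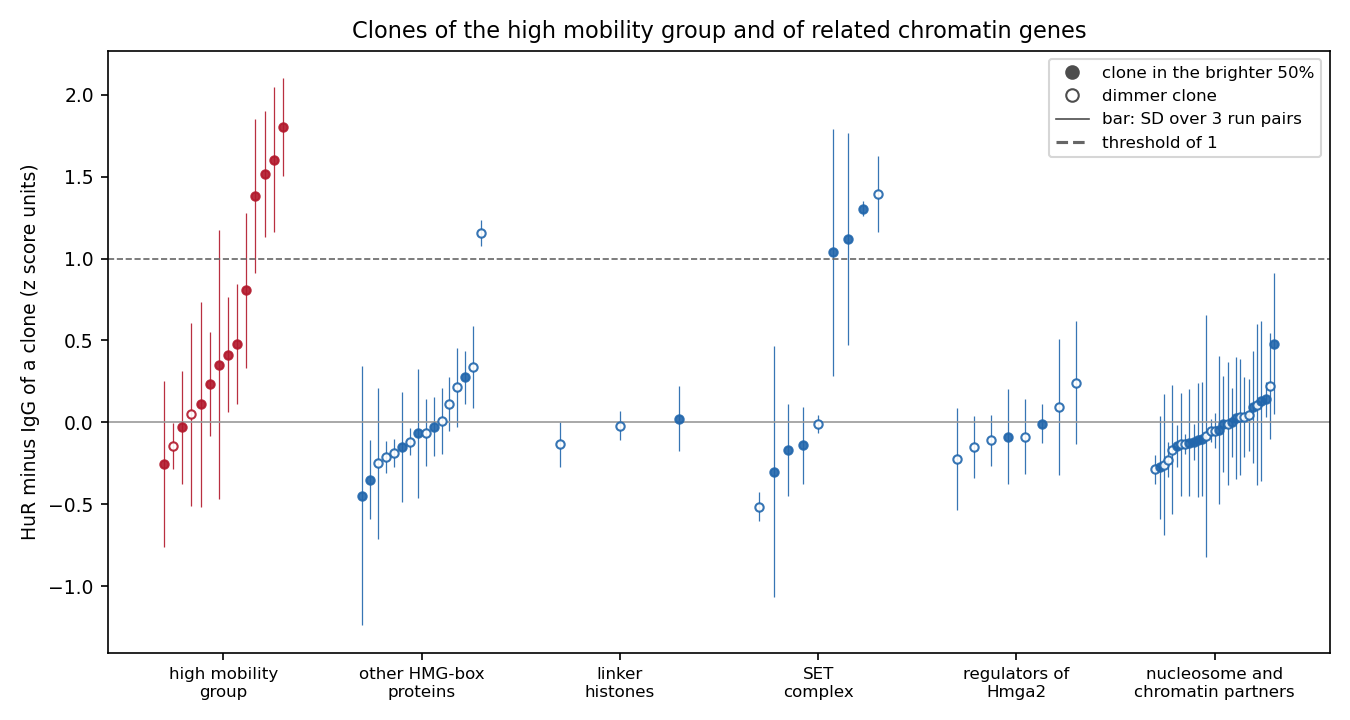
Difference between HuR and IgG (vertical axis, z score units) of every clone of the high mobility group (red, Hmgb1 included) and of the related lists (blue), with the SD over 3 run pairs as bars and dimmer clones as open circles. Apart from Hmgb1, the clones past 1 are those of Set and the dim Sox4 clone at 1.16.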

How the data were processed

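RNA from 1 HuR and 1 IgG immunoprecipitate of C2C12 cells was measured on cDNA arrays, with 3 run columns each. Per the file headers, the deposited values are z scores made by the authors. Each run had mean 0 and SD 1 within each of 2 array sections, as checked on the values. The mean scores of both deposited files were identical. The array type, the scanner and any log or background step were not given in the sources used here. A z ratio score and a p-value per clone, also deposited by the authors, are quoted as theirs, without a known method.

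Runs were centred on their median within each section, which added 0.03 to 0.16. IgG scores were subtracted from HuR scores within each of 3 run pairs and averaged per clone, and genes were summarised by the median over clones in the brighter 50%. A gene's SD is that of the median of its clones in each run pair. Same-numbered runs were treated as pairs since their deviations from the mean of their antibody correlated across features at 0.33 to 0.54, against -0.48 to 0.08 otherwise. The 3 deviations of an antibody sum to 0, so positive values for same-numbered runs lower the others, and this contrast is partly built in. Pairing leaves the means as they are. No test was made with 1 sample per antibody. The plan took 1 z score unit in place of a fold change.

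Clones were named by gene number through RefSeq genes (GRCm38.p6), which named 8004 clones. A further 2719 kept the symbol of the table and 6173 stayed unnamed. Members, gene lists, threshold and alternatives were chosen with earlier results of these data known. Named genes were all members, Hmgb1, the 2 highest and 2 lowest genes of each related list, and the 5 clones nearest to the highest and to the lowest member. Alternatives were quantile normalization, scores as deposited, other signal filters and thresholds, the median of run pairs, leaving out a run pair, subtracting adjoining wells and the brightest clone of a gene. The array sections alone and the omission of the Hmgb2 clone were added after seeing the data. Scripts were tested on simulated data with Python 3.11.15, numpy 2.4.6 and pandas 2.3.3. The number of arrays limits the precision.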

Additional observations from a re-analysis of the deposited data

How the results depend on the processing

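No member gene moved past its spread between run pairs under any of its alternatives, in 50 values of 5 genes and 63 values of 9 clones. Many of these values had no room to do so. Leaving out a pair, or taking the median of the pairs, shifts any clone by less than its own SD over the pairs. The same holds for a gene with 1 clone. The other signal filters and the brightest clone used the same clone for such genes and returned the same value. These settings therefore show nothing about the stability of the clones or of genes with 1 clone. For them, only quantile normalization and the subtraction of adjoining wells bear on it. The deposited scores differ from the centred ones by the same shift for every clone of a section. These shifts nearly cancelled between HuR and IgG in the mean, so this setting could hardly move a mean difference. Hmgb3 was at 0.81, Hmgn2 at 0.48 and the Hmgb2 clone at 0.41 both ways. Over the alternatives Hmgb3 ran from 0.54 without the unnumbered pair to 1.00 with adjoining wells subtracted, Hmgn2 from 0.36 to 0.69 and the Hmgb2 clone from 0.29 to 0.62. Hmga2 ran from -0.20 without pair 3 to 0.35 without pair 4, and Hmgn5 from -0.54 without pair 3 to 0.04 with adjoining wells subtracted run by run. The number of member clones past the threshold was 0, and became 1 at a threshold of 0.6 and 1 with adjoining wells subtracted run by run, Hmgb3 in both. With the median of those wells taken from the mean difference, Hmgb3 was at 0.98 and did not pass 1. Over all clones, the 132 at or above 1 became 311 at 0.6, 66 at 1.5, 50 with adjoining wells subtracted and 21 in section 2 alone. The 8 at or below -1 became 28 over all signal levels, 21 with the median of pairs, 95 at 0.6, 0 at 1.5, 14 with adjoining wells subtracted, 0 in section 2 alone, and 8 to 78 with a run pair left out (78 without pair 3, 52 without pair 4). The median of nucleosome and chromatin partners became 0.12 with adjoining wells subtracted. The other HMG-box list had too few genes in the brightest 25%, and the linker histone and Hmga2 regulator lists too few throughout, for a median. The causes of these changes were not tested. No paired analysis was possible because there was a single sample for HuR and for IgG, so samples could not be paired. The run pairs used throughout are repeat columns of those 2 samples.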
